A study of Rattus norvegicus with 20 samples.

Results

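The interleukin-1 and interleukin-18 ligands and receptors were followed in rat blood before and after acetaminophen (APAP). The set held 9 genes: the ligands Il1a, Il1b, Il1rn and Il18, and the receptors Il1r1, Il1r2, Il1rap, Il18r1 and Il18rap. A probe set, the group of short probes by which the array reads a transcript, was taken where the platform annotation gave exactly 1 symbol and that symbol was one of the 9. This held for 11 probe sets of 7 genes, among 20826 probe sets with 1 symbol and 31042 in all, and all 11 passed the filter on low signal. Il18r1 and Il18rap had no such probe set and were not analysed here. Blood RNA of male Wistar rats, an outbred strain, was hybridised to 20 Affymetrix rat expression arrays that cover the genome, 5 for each of 4 groups. These were the most susceptible rats postdose (SA) and predose (S), and the most resistant rats postdose (RA) and predose (R). Postdose rats had received APAP once by mouth at 1200 mg/kg, 24 h earlier, and the sub-groups were formed from serum alanine transaminase, an enzyme that leaks from injured liver, after the dose. Vehicle-treated rats were not among the arrays, and postdose blood also differed from predose blood by a recovery week, fasting and, per the methods, the site of bleeding (vena cava against the retro-orbital plexus, whereas the labels name the plexus for both). The postdose change therefore holds all of these, which cannot be told apart. Red cells were lysed before RNA extraction.

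Interleukin-1 alpha and beta, encoded by Il1a and Il1b, are inflammatory cytokines that bind the receptor Il1r1, which then pairs with the accessory protein Il1rap to signal through Myd88. The pathway has its own brakes: the receptor antagonist Il1rn occupies Il1r1 without signalling, and Il1r2 is a decoy receptor that binds interleukin-1 without a signalling domain. Interleukin-18 is related in structure, is cut to its active form by caspase-1 as interleukin-1 beta is, and drives interferon gamma in lymphocytes together with interleukin-12. In blood, monocytes and neutrophils are the main sources of interleukin-1 beta, and neutrophils carry much of the decoy receptor.

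Signals below are intensities scaled to an array median of 1000, and differences are on the log2 scale, where 1 is a doubling. Deposited array medians were 187 to 223, arrays correlated at r = 0.920 to 0.942 over log2 signals, and the difference between 3′ and 5′ actin probe sets, a sign of RNA quality, was 0.79 ± 0.10 in SA, 0.87 ± 0.05 in S, 0.76 ± 0.10 in RA and 0.80 ± 0.03 in R (log2, SD, n = 5). Probe sets for bacterial trp genes, which rats lack, were taken as background, and the highest of the 3 reached 34.9 to 279 per array. Within SA, replicates 1 and 3 stood apart: their summed signal of 7 liver marker genes was 18268 and 27222, against 3316 to 6840 in the other SA arrays and 2055 to 4152 on all S, RA and R arrays. Called differences of members that use SA arrays, and those of Il18bp, Saa3 and the liver markers, are given with and without them. Per the methods the same rats were bled before and after the dose, but the labels do not say that equal replicate numbers are one rat. The tests therefore take the arrays as separate samples, and the p-values measure the spread between them.

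The sequence upstream of the 3 genes with a probe set that rose in both sub-groups is shown here, since the letters allow their starts to be compared. The 250 bases before the start are from RefSeq (GRCr8), which held promoters of 7 of the 9 genes, and capitals mark matches to the motifs searched on both strands. These were the TATA box as TATAAA, the core of the PU.1 site as GAGGAA, the AP-1 site as TGANTCA, the C/EBP site as TTGCNNAA, and the kappa-B site.
Il1b, chr3:137036582-137036831, minus strand: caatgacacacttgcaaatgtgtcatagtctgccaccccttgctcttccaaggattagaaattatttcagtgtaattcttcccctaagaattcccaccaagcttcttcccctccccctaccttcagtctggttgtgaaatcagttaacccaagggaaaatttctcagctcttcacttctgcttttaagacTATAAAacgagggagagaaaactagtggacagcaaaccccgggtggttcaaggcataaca
Il1r1, chr9:50034133-50034382, plus strand: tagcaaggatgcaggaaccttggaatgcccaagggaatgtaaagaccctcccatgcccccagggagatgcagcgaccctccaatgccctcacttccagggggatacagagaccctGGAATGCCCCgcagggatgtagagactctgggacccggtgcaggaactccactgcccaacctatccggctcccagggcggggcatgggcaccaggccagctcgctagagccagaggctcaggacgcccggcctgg
Il1rap, chr11:87704343-87704592, minus strand: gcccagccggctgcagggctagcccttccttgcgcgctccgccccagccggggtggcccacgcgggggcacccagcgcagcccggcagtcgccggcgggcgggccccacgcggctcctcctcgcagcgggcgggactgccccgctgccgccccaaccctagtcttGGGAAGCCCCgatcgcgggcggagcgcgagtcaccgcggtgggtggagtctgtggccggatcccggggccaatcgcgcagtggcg
The Il1b window held a TATA box 60 to 55 bases before the start, a motif present in 12.9% of 33469 rat promoter windows of this length. The windows of Il1a and Il1rn, which gave no call, also held TATA boxes (in Il1rn on the minus strand). That of Il1a held a PU.1 core and an AP-1 match too. The Il1r1 and Il1rap windows each held a kappa-B match and no TATA box: at 135 to 126 bases before the Il1r1 start, on the minus strand, and at 85 to 76 bases before the Il1rap start. Of all windows, 6.33% had a kappa-B match, 23.3% a PU.1 core, 6.34% an AP-1 match and 9.22% a C/EBP match. The Il1r1 window lies within the annotated span of the gene, before an internal start, and the Il1rap window is 1 of 2 in the table. A match describes letters only.

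The first question was which members changed after APAP in each sub-group. Il1b, Il1r1, Il1rap and the decoy receptor Il1r2 were higher in susceptible rats postdose, and Il1b, Il1r1 and Il1rap in resistant rats postdose, each by 1 probe set, whereas no probe set of Il1a, Il1rn or Il18 passed the test. In susceptible rats 4 of 11 probe sets rose and none fell (limma, Benjamini-Hochberg adjusted p under 0.05), where 6.66% of 30747 probe sets passed in either direction and 3.86% rose. In resistant rats 3 of 11 rose and none fell, where 5.11% passed and 2.51% rose. Postdose and predose arrays did not overlap for 4 of 11 probe sets in each sub-group, all higher postdose, where 6.83% of all probe sets were separated in susceptible and 6.76% in resistant rats. The median difference over the 11 was 0.04 in susceptible rats, against 0.01 over all probe sets, and 0.51 in resistant rats, against -0.01 over all. A median of 11 is the value of 1 probe set, Il1a 1371170_a_at in susceptible rats and Il1r1 1369255_at in resistant rats. The latter exceeded the trp controls on only 11 of 20 arrays, and its interval was -0.96 to 1.98, so the median shows no shift of the family. In whole blood, more cells of a type and more RNA per cell cannot be told apart.

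**Figure D1:**
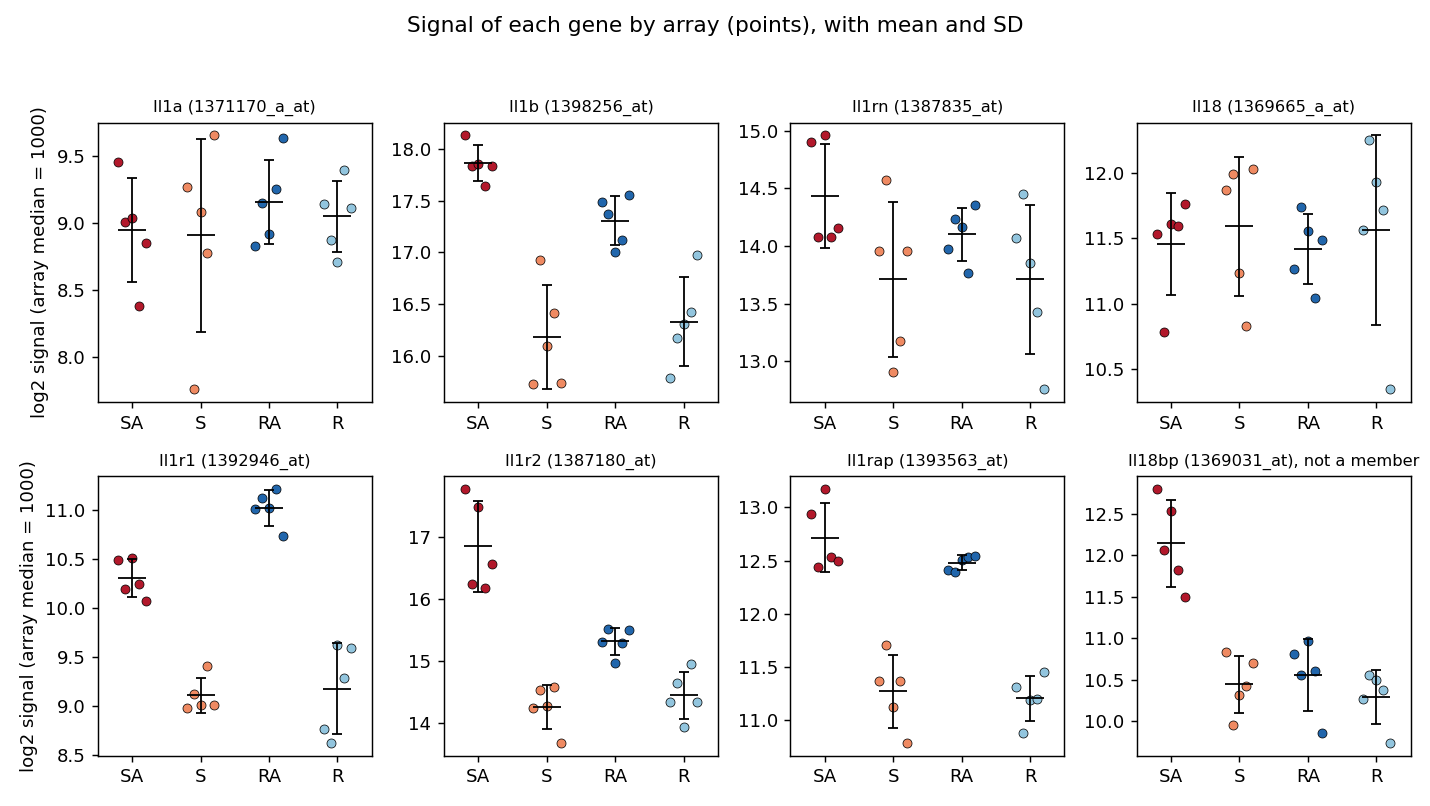
Log2 signal (array median 1000) of the probe set with the highest mean signal for each of 7 genes, and of Il18bp, on each of 20 arrays. Points are arrays, bars the mean and SD of 5 arrays, and groups are SA and S (susceptible postdose and predose), RA and R (resistant postdose and predose). Every postdose point of Il1b, Il1r1, Il1r2 and Il1rap lies above the predose points of the same sub-group, whereas those of Il1a, Il1rn and Il18 overlap.

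Among the ligands, Il1b (chr3:137030200-137036581, GRCr8) rose in both sub-groups. Its probe set 1398256_at had signals of 287295, 234468, 237719, 205116 and 233807 on the SA arrays, against 54057, 124138, 69872, 86966 and 54699 on the S arrays. All 5 SA arrays lay above all S arrays, a log2 difference of 1.69 (SE 0.23, 3.22-fold, adjusted p = 0.000242), or 1.60 without SA replicates 1 and 3 (adjusted p = 0.00598). In resistant rats the signals were 183151, 169404, 131220.0, 141926 and 193093 postdose, against 56273, 73659, 80761, 87541 and 128371 predose. The groups did not overlap, but the lowest postdose array was close to the highest predose one, and the difference was 0.98 (SE 0.23, 1.97-fold, adjusted p = 0.0166). The call in resistant rats was lost when replicate numbers entered as a block (adjusted p = 0.0617) and with the methods' t-test (adjusted p = 0.0908), while the difference stayed at 0.98.

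Il1a (chr3:136979804-136990236), the alpha form, gave no call. Its brighter probe set 1371170_a_at ranged over 333 to 702 in SA, 216 to 805 in S, 455 to 793 in RA and 419 to 674 in R, so that all groups overlapped, and its differences were 0.04 (95% interval -0.55 to 0.63) in susceptible and 0.11 (-0.49 to 0.70) in resistant rats. The second probe set, 1368592_at, exceeded all trp controls on 14 of 20 arrays, lay below the array median on all of them, and had differences of -0.87 and 0.99 with intervals that crossed 0 (-2.67 to 0.93 and -0.81 to 2.79).

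Il1rn (chr3:27509836-27525738), the antagonist, overlapped between all groups. Its signals were 30615, 17324, 31899, 17267 and 18265 in SA, against 15877, 24434, 7659.8, 9237 and 15894 in S. The 2 highest SA arrays were replicates 1 and 3, those with high liver markers, and the difference of 0.72 (SE 0.33, unadjusted p = 0.0409 in limma) did not pass after adjustment (0.236), and was 0.39 without these arrays. In resistant rats the range was 13970.5 to 21008 postdose, against 6917 to 22364 predose, and the difference was 0.39 (SE 0.33, adjusted p = 0.624). Il18 (chr8:59802072-59829275) had signals of 1762 to 3474 in SA, 1823 to 4183 in S, 2111 to 3423 in RA and 1303 to 4865 in R. All groups overlapped, and the intervals of the postdose differences, -0.79 to 0.52 in susceptible and -0.80 to 0.52 in resistant rats, left out a doubling in either direction.

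**Figure D2:**
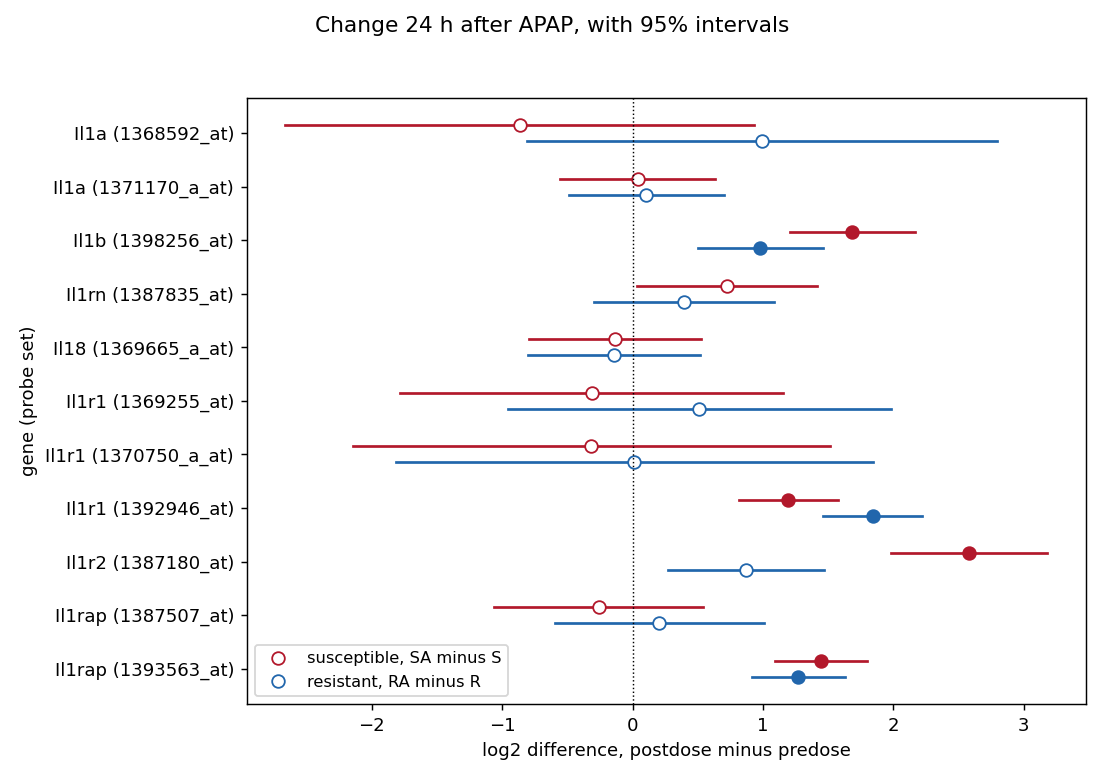
Postdose minus predose log2 difference with its 95% interval for each of the 11 probe sets, with susceptible rats (SA minus S) above resistant rats (RA minus R) in each pair. Filled points passed the test: 4 probe sets in susceptible and 3 in resistant rats, all to the right of 0.

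Among the receptors, Il1r2 (chr9:49879928-49920374), the decoy, had the largest difference of the 11 probe sets in susceptible rats. Signals of 1387180_at were 223515, 77623, 182180.0, 73968 and 96837 in SA, against 19532, 23741, 19874, 24436 and 13153 in S. All SA arrays exceeded the S arrays, with replicates 1 and 3 the highest, and the difference was 2.58 (SE 0.29, 5.98-fold, adjusted p = 5.12e-05), or 2.06 without these replicates (adjusted p = 0.000391). In resistant rats the signals were 40490.4, 46831, 32162, 40018 and 46426 postdose, against 20732, 25599.5, 15802, 31824 and 20864 predose. The groups did not overlap, yet the difference of 0.87 (SE 0.29, 1.83-fold) missed the threshold (adjusted p = 0.0967). It passed with quantile normalization (0.0480), with a filter at the array median (0.0288) and when only the arrays compared were fitted (0.0473). With a block for replicate numbers it did not pass (0.147).

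Il1r1 (chr9:50000558-50076579), the signalling receptor, was read by 3 probe sets that did not move alike. Signals of 1392946_at were 1442, 1175, 1462, 1211 and 1077 in SA, against 505, 559.6, 518, 680.3 and 518 in S, and 2060.1, 2224, 2076, 2376 and 1705 in RA, against 436, 395, 789.7, 623 and 771 in R. In both sub-groups all postdose arrays lay above all predose arrays, by 1.19 (SE 0.18, 2.29-fold, adjusted p = 0.000565, and 1.06 without SA replicates 1 and 3) in susceptible and 1.84 (SE 0.18, 3.58-fold, adjusted p = 2.74e-05) in resistant rats. The other probe sets, 1369255_at and 1370750_a_at, exceeded all trp controls on only 11 and 14 of 20 arrays and never reached the array median. Their differences were -0.31 and -0.32 in susceptible rats and 0.51 and 0.01 in resistant rats, and all of their intervals crossed 0.

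Il1rap (chr11:87567813-87704346), the accessory protein, also had probe sets that disagreed. Signals of 1393563_at were 7859, 5560.3, 9241, 5930.1 and 5777 in SA, against 2646, 3351, 2229, 2653 and 1767 in S, and 5449.8, 5385, 5819, 5946 and 5963 in RA, against 2546, 1882, 2342, 2357 and 2800.3 in R. All postdose arrays lay above all predose arrays, by 1.44 (SE 0.17, 2.72-fold, adjusted p = 7.97e-05, and 1.22 without SA replicates 1 and 3) in susceptible rats and 1.27 (SE 0.17, 2.41-fold, adjusted p = 0.000262) in resistant rats. The second probe set, 1387507_at, exceeded the trp controls on all 20 arrays and overlapped in all groups, with differences of -0.26 (-1.06 to 0.54) and 0.20 (-0.595 to 1.005). The intervals of 1393563_at were 1.09 to 1.80 and 0.92 to 1.63. In both sub-groups, the interval of each Il1rap probe set thus left out the difference of the other.

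**Figure D3:**
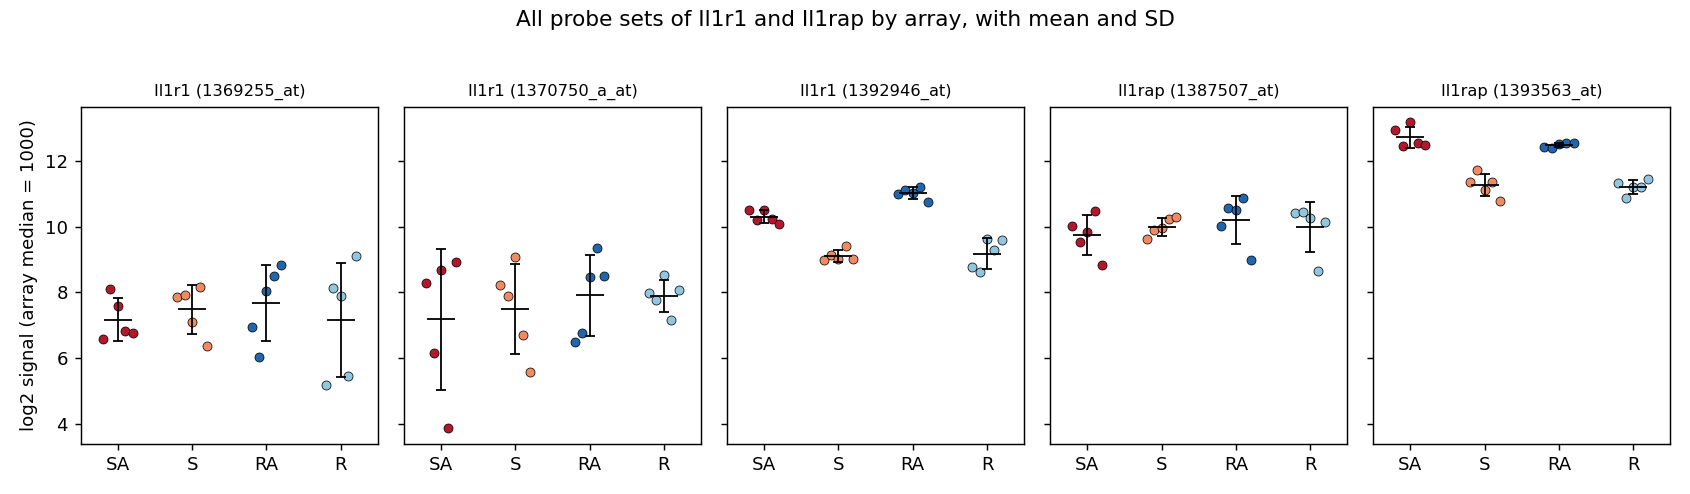
Log2 signal of the 3 probe sets of Il1r1 and the 2 of Il1rap on each of 20 arrays, with mean and SD of 5 arrays (groups SA, S, RA and R from left to right). Only 1392946_at and 1393563_at separate postdose from predose arrays; the others overlap.

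The second question was whether susceptible and resistant rats differed. After the dose Il1r2 was higher in SA than in RA arrays, by 1.53 (SE 0.29, 2.89-fold, adjusted p = 0.0385), and the lowest SA signal of 73968 lay above the highest RA signal of 46831. It was the single call among 11 probe sets, where 0.143% of all probe sets passed. With a block for replicate numbers its adjusted p was 0.109, but between sub-groups equal numbers are different rats, so that fit cannot test the call. The call did not hold with only the arrays compared (adjusted p = 0.170), with the methods' t-test after adjustment (0.457), or in 11 of 20 fits that left out 1 array, where adjusted p reached 0.117. The arrays behind these fits were SA replicates 1, 3 and 5, S replicates 2 and 3, all RA replicates and R replicate 1, and the difference stayed between 1.30 and 1.70. Without SA replicates 1 and 3 the difference was 1.01 (adjusted p = 0.242). No other member passed. Il1b lay higher on every SA array than on any RA array (205116 to 287295 against 131220.0 to 193093), and Il1r1 by 1392946_at lower (1077 to 1462 against 1705 to 2376), but their differences of 0.56 (adjusted p = 0.442) and -0.72 (adjusted p = 0.130) missed the threshold. Groups that did not overlap thus numbered 3 of 11, against 2.23% of all probe sets. Il1rap by 1393563_at differed by 0.24 (-0.12 to 0.59), or by 0.012 without SA replicates 1 and 3.

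The change itself was compared between sub-groups in a test of the difference, change in susceptible minus change in resistant rats. It passed for none of the 11 probe sets, as for 0% of all 30747. At an unadjusted p under 0.05 it held for 3 of 11, where 6.9% of all probe sets did: Il1r2 with 1.71 (0.86 to 2.56, adjusted p = 0.320), Il1b with 0.71 (0.03 to 1.38, adjusted p = 0.702), and Il1r1 by 1392946_at with -0.65 (-1.18 to -0.11, adjusted p = 0.607). Without SA replicates 1 and 3, that of Il1r2 was 1.19 (adjusted p = 0.604). The Il1rap difference of 0.17 by 1393563_at had an interval of -0.33 to 0.68.

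Before the dose no member passed a test between the sub-groups. None of the 11 probe sets passed by limma (0.00329% of 30416 tested did, and none of the 11 had an unadjusted p under 0.05, where 3.74% of all did), none separated the groups (0.529% of all did), and the methods' t-test with a fold change of 2 called none of them. The differences, susceptible minus resistant, were -0.15 (-0.79 to 0.48) for Il1b, -0.18 (-0.69 to 0.33) for Il1r2, -0.07 (-0.56 to 0.42) for Il1r1 by 1392946_at and 0.06 (-0.35 to 0.47) for Il1rap by 1393563_at.

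**Figure D4:**
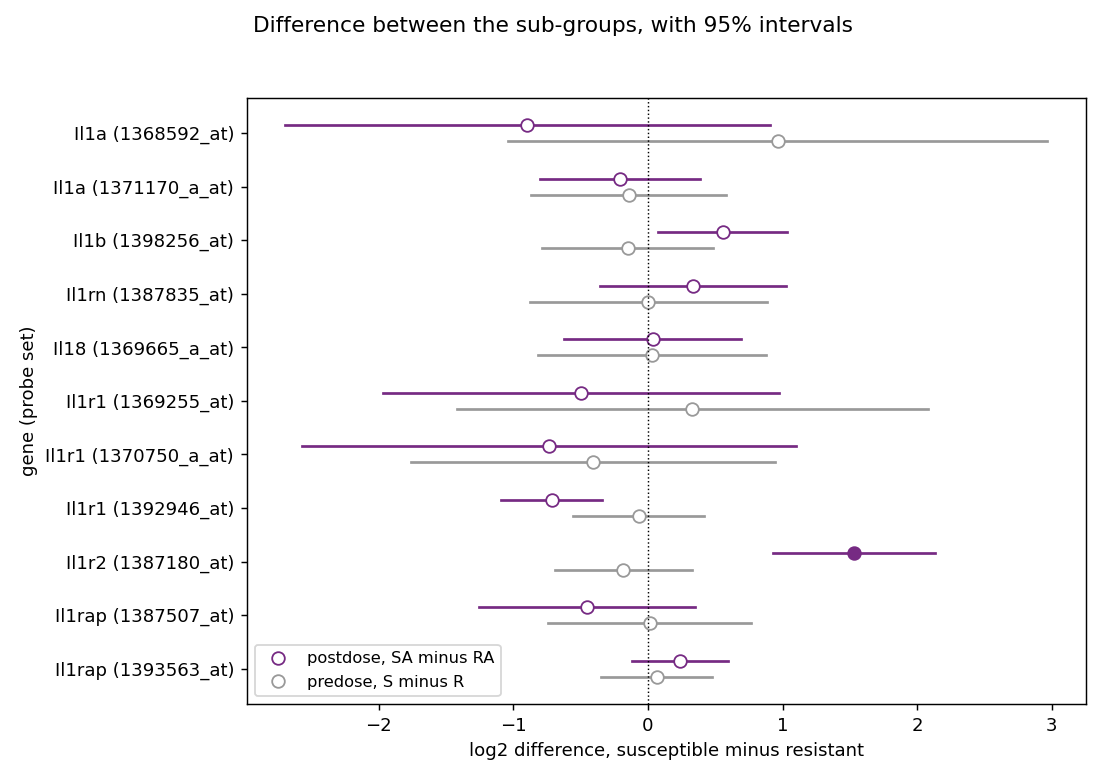
Susceptible minus resistant log2 difference with its 95% interval for each of the 11 probe sets, postdose (SA minus RA) above predose (S minus R) in each pair. Only postdose Il1r2 is filled, as the 1 probe set past the test, at 1.53.

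Blood cell markers moved with these changes, and their part in the result was not tested. Of 9 neutrophil markers with a probe set, 5 rose in susceptible rats and 4 in resistant rats, none fell, and their summed signal ranged over 847659 to 1228133 in SA, 500057 to 669901 in S, 827227 to 1026997 in RA and 507526 to 715169 in R, with no overlap between postdose and predose arrays. The highest sums in SA were those of replicates 1 and 3, which were also the highest for Il1r2 and Il1rap. Csf3r, a cytokine receptor of granulocytes, rose by 1.728 (SE 0.17) and 1.502 (SE 0.17), and Cxcr2, a chemokine receptor of neutrophils, by 2.21 (SE 0.23) and 1.48 (SE 0.23), in susceptible and resistant rats. These were the markers of the list with the largest rises, whereas the granule protein Camp had differences of -0.26 and -0.89 (SE 0.31) and the collagenase Mmp8 of 0.47 and -0.10 (SE 0.34), none past the test. The sum is mostly S100a8 and S100a9, which made up 76.9% to 90.1% of it on the 20 arrays. Of 9 monocyte markers, 3 fell in susceptible rats and none passed in resistant rats (summed signal 408166 to 559537 in SA, 464173 to 498162 in S, 361096 to 543690 in RA, 371562 to 527801 in R). Natural killer and cytotoxic cell markers rose in 7 of 10 cases in susceptible and 8 of 10 in resistant rats. T cell markers fell in 1 of 11 cases in each sub-group and B cell markers in 2 of 5 in susceptible rats and none in resistant rats, and no marker of platelets (7) or of red cells (5) passed in either. Of all probe sets, 6.66% passed in susceptible and 5.11% in resistant rats, and 1 of 11 is near these shares. Liver markers rose in 2 of 7 cases (albumin, Alb, by 3.17 and the plasma protein Ahsg by 2.62) in susceptible rats and in none in resistant rats, and without SA replicates 1 and 3 the differences were 1.88 (adjusted p = 0.172) and 2.09 (0.134). Several markers lay near background: of 20 arrays, Cxcr1 exceeded the trp controls on 11, the monocyte markers Cd163 and Ms4a7 on 10 and 13, and the liver markers Apoa1, Fgb and Ahsg on 2, 13 and 14. Without SA replicates 1 and 3, the markers that passed in susceptible rats were 3 of neutrophils, 1 of monocytes and 7 of natural killer and cytotoxic cells, and 0 of T cells, of B cells and of liver. The T cell call in susceptible rats, Cd4, was also lost in 14 of 20 fits that left out 1 array (adjusted p up to 0.116).

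**Figure D5:**
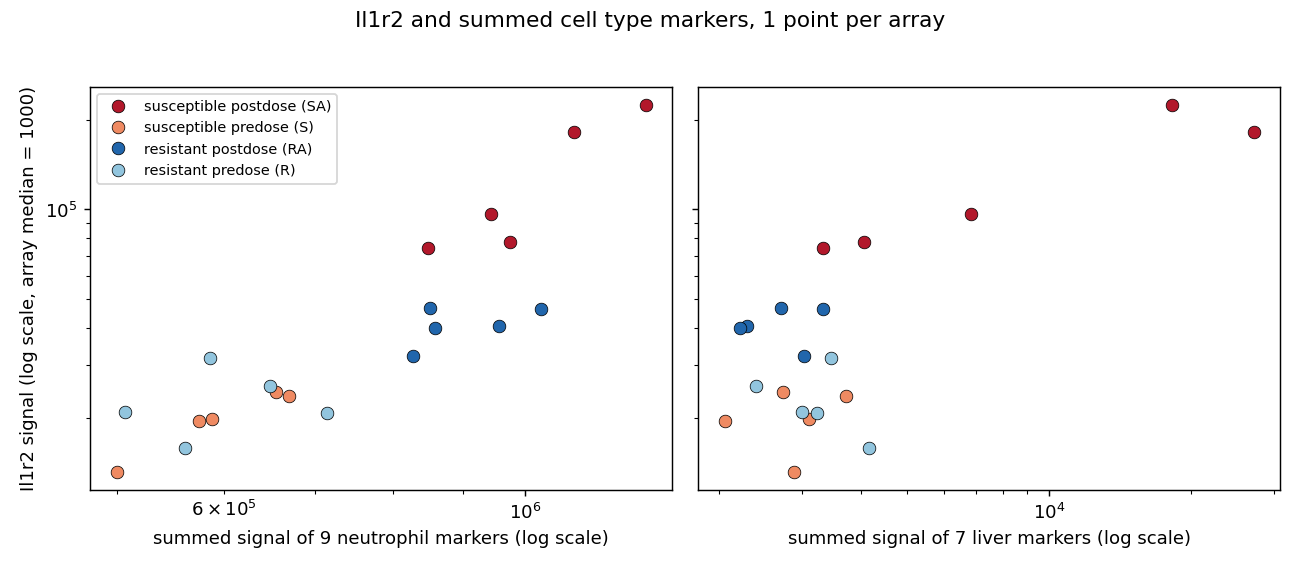
Il1r2 signal against the summed signal of 9 neutrophil markers (left) and 7 liver markers (right) on each of 20 arrays, both axes on a log scale, with colours for the groups SA, S, RA and R. The neutrophil sums span 847659 to 1228133 in SA and 827227 to 1026997 in RA, and the 2 SA points with liver sums of 18268 and 27222 are the highest for Il1r2.

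Other genes of the pathway were counted on 1 probe set per gene. The counts are to be read beside the 6.66% of all probe sets that passed in susceptible and 5.11% in resistant rats. Of 7 further family members with a probe set, of 12 listed, Il18bp (chr1:165784916-165787990), a secreted protein that binds and blocks interleukin-18, rose in susceptible rats and no other passed in either sub-group. Il18bp signals were 7148, 4294, 5947, 3621 and 2899 in SA, against 1826, 989.9, 1271, 1369.9 and 1659 in S. All SA arrays lay above the S arrays, by 1.70 (SE 0.26, 3.26-fold, adjusted p = 0.00059), or 1.35 without SA replicates 1 and 3 (adjusted p = 0.0115). In resistant rats its signals were 1790.1, 1501, 2006, 1549 and 921 postdose, against 1235, 1501, 1447, 1323 and 851 predose. These overlapped, with a difference of 0.27 (SE 0.26, adjusted p = 0.679). SA arrays exceeded RA arrays by 1.59 (SE 0.26, adjusted p = 0.0196). That call was lost without SA replicates 1 and 3 (difference 1.24, adjusted p = 0.208), without SA replicate 1 or 3 alone or RA replicate 2 or 4 (adjusted p up to 0.0656), with only the arrays compared (0.0946) and with the methods' t-test after adjustment (0.244). The difference of the changes was 1.43 (adjusted p = 0.330). Sigirr, a family receptor that dampens signalling, changed by 0.02 (SE 0.12) and -0.02 (SE 0.12), and Il36b, a cytokine of the family, had differences of 0.28 (SE 0.21) and 0.53 (SE 0.21) that did not pass.

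Of 7 genes that mature or release these cytokines, Casp8, a protease of cell death pathways, rose in susceptible rats by 0.96 (SE 0.16, adjusted p = 0.00116), and none passed in resistant rats. Pycard, the inflammasome adaptor, had differences of 0.22 (SE 0.17) and -0.04 (SE 0.17) and Nek7, an inflammasome kinase, of -0.27 (SE 0.09) and -0.03 (SE 0.09), none past the test. Among 17 receptor adaptors and kinases, Myd88, the adaptor of these receptors, rose by 0.84 (SE 0.14) in susceptible and 0.64 (SE 0.14) in resistant rats, whereas Map3k8, a kinase of the inflammatory cascade, fell by 0.63 (SE 0.13) and 0.81 (SE 0.13). Traf6, the ubiquitin ligase below Myd88, fell by 0.65 (SE 0.15) in resistant rats. Irak1, the kinase that Myd88 recruits, had differences of -0.03 in each (SE 0.11). The medians were -0.19 and -0.06 over this list, in susceptible and resistant rats, against 0.01 and -0.01 over all probe sets.

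Genes known to be induced by interleukin-1 split in direction. Of 14, 3 rose and 1 fell in susceptible rats, and 4 fell and none rose in resistant rats, with medians of 0.21 and -0.69. The neutrophil chemokine Cxcl2 rose by 1.46 (SE 0.40), the cyclooxygenase Ptgs2 by 1.49 (SE 0.38) and the acute-phase protein Saa3 by 1.997 (SE 0.42) in susceptible rats. In resistant rats the monocyte chemokine Ccl2 fell by 2.91 (SE 0.63), Nfkbiz, a co-regulator of NF-kappa-B, by 0.80 (SE 0.21), Zc3h12a, an RNase that degrades cytokine messages, by 1.10 (SE 0.30) and Tnfaip3, an inhibitor of NF-kappa-B, by 0.94 (SE 0.20). Tnfaip3 also fell in susceptible rats, by 0.75 (SE 0.20). Nfkbia, another inhibitor of NF-kappa-B, had differences of -0.23 and -0.44 (SE 0.17) that did not pass. Without SA replicates 1 and 3, Saa3 was the 1 gene of this list that passed in susceptible rats, at 1.30 (adjusted p = 0.0143), with Cxcl2 at 0.80 (adjusted p = 0.312), Ptgs2 at 1.18 (0.205) and Tnfaip3 at -0.86 (0.0771). Leaving out single arrays also ended the calls of Cxcl2 (adjusted p up to 0.102), Ptgs2 (0.0735) and Tnfaip3 (0.0859) in susceptible rats and of Nfkbiz (0.107) and Zc3h12a (0.108) in resistant rats in some fits. With only the arrays compared, 0 of 14 passed in susceptible rats, where Saa3 had an adjusted p of 0.0730, and 2 in resistant rats. With the methods' t-test after adjustment the counts were also 0 and 2. In resistant rats Ccl2 (adjusted p = 0.0668 and 0.183), Nfkbiz (0.0789 and 0.132) and Tnfaip3 (0.0585 and 0.148) lost their calls in these 2 settings. The 2 genes that passed there were thus not both among the 4 of the main fit. Of the 14, Il6, Cxcl1, Lcn2, Csf2 and Csf3 exceeded the trp controls on only 3 to 14 of 20 arrays, and they enter the medians. None of 6 genes of the interleukin-12 and interleukin-18 response passed in either sub-group, with Stat4, the factor below interleukin-12, at 0.21 and 0.31 (SE 0.11), and Gadd45b at 0.20 and -0.52 (SE 0.23). In the main fit, no gene of these 5 lists but Il18bp passed between SA and RA, and none passed in the predose comparison or between the changes. For the 14 genes induced by interleukin-1, the SA minus RA count depended on the setting. It was 0 to 4 over 11 other settings, 7 of which differed from the main fit. It was 0 to 2 when 1 array was left out, with 5 of 20 fits differing. The median SA minus RA difference of this list was 0.62. Ccl2 had a mean log2 signal of 13.1742 (SD 0.4594) in SA and 9.9995 (SD 0.4629) in RA.

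The genes whose log2 signals followed the members most closely over the 20 arrays, of 14137 searched, were named for the 4 members of highest mean signal. They included, for Il1r2, the ectonucleotidase Entpd1, for Il1rn the immunoglobulin receptor Fcgr1a and for Il1rap the transglutaminase Tgm1. In full they were Mocos, Marcks and Numb for Il1b (Pearson r = 0.94, 0.94 and 0.93), Entpd1, Prr5l and Nceh1 for Il1r2 (0.96, 0.95 and 0.95), Pgam1, Napsa and Fcgr1a for Il1rn (0.92, 0.91 and 0.91), and Tgm1, Antxr2 and Slc35a5 for Il1rap (0.98, 0.97 and 0.97). Among the members, Il1b followed Il1rap at r = 0.91 and Il1r2 at 0.88, and at 0.51 and 0.42 once group means were removed, whereas Il1rn and Il18 gave 0.57 over all arrays and 0.77 within groups. The points share the 4 groups and their normalization, and these values are a description.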

How the data were processed

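Blood RNA was measured on 20 arrays, 5 per group. The authors deposited 1 linear intensity per probe set and array; the methods state a normalization per chip to a median of 1000 in ArrayTrack, whereas the deposited medians were 187 to 223, so that what the deposited values were set to is not given in the sources used here. The intensities of each array were therefore multiplied to give its probe sets, without 57 controls, a median of 1000, and log2 values were taken. Probe sets under 100 on all arrays compared were left out, which kept 30747 (predose, 30416). Tests were run in R 4.3.3 with limma 3.58.1 (lmFit, eBayes), with Benjamini-Hochberg adjustment over all probe sets and a threshold of 0.05. Only the 10 predose arrays entered the predose fit, and all 20 the others. The number of arrays limits the precision.

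Symbols came from the platform annotation (20826 probe sets with 1 symbol, 436 with several, 9780 with none), and positions and sequences from RefSeq (GRCr8). Named were all probe sets of the members, in other lists the genes past the threshold and the 2 of highest mean signal, for cell markers examples picked after their values were seen, and for the 4 brightest members the 3 most correlated genes. Members and lists were chosen with earlier results of these data known. The fit was tested on simulated data. Alternatives were values as deposited, quantile normalization, no filter, a filter at the array median, low values set to 100, 1 probe set per gene, a replicate block, only the arrays compared (predose, all arrays), the methods' t-test (with a fold change of 2, and adjusted) and leaving out each array, and, chosen after seeing the data, leaving out SA replicates 1 and 3. Within a sub-group the replicate block took equal numbers as 1 rat. Between sub-groups at 1 time it was the number alone, which joins different rats. Python 3.11.15 and matplotlib 3.10.9 drew the figures. Real-time PCR and serum values were not used here.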

Additional observations from a re-analysis of the deposited data

Results flagged for a closer look

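Of 48 groups of 5 arrays examined, 3 held an array far from the others, measured on log2 signals as its gap to the nearest array over the range of the group, and chance gives about 1 in 20 such groups. Il1a by 1368592_at was lowest on RA replicate 5 (signal 95.5, next 262, gap over range 0.901), a probe set near the trp controls. Il18 was lowest on SA replicate 2 (1762, next 2960.2, gap over range 0.764). Il1rap by 1387507_at was lowest on R replicate 4 (406, next 1139, gap over range 0.833). None of these probe sets passed a test in any comparison.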

How the results depend on the processing

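Of 1495 member differences recomputed, 1405 kept their direction and call. The members called in susceptible rats numbered 3 or 4 under every alternative, and in resistant rats 2 to 4. Between SA and RA, 0 members were called with only the arrays compared, with the methods' t-test after adjustment and without SA replicates 1 and 3, and 0 to 1 when 1 array was left out. The replicate block also gave 0, but there it joins different rats. Each direction that turned belonged to a difference that had not passed its own test. Without SA replicates 1 and 3 they were Il1a 1371170_a_at in SA minus S (-0.16), Il18 in SA minus RA (-0.039), and, in the difference of changes, Il1rn (-0.0001), Il18 (-0.069) and Il1rap 1393563_at (-0.053). The Il18 difference of changes was also -0.016 with quantile normalization and -0.041 with values as deposited. With low values set to 100, Il1r1 1370750_a_at gave 0.13 in SA minus S and 0.081 in the difference of changes, and Il1r1 1369255_at -0.14 in S minus R, and with quantile normalization Il1r1 1370750_a_at gave -0.006 in RA minus R. Leaving out 1 array turned the direction of others. The ranges were, for SA minus S, Il18 1369665_a_at -0.32 to 0.034, Il1a 1371170_a_at -0.25 to 0.23, Il1r1 1370750_a_at -0.79 to 0.51. They were, for RA minus R, Il18 1369665_a_at -0.45 to 0.029, Il1a 1371170_a_at -0.013 to 0.19, Il1r1 1370750_a_at -0.35 to 0.37, Il1rap 1387507_at -0.13 to 0.50. They were, for the difference of changes, Il18 1369665_a_at -0.18 to 0.31, Il1a 1371170_a_at -0.35 to 0.12, Il1r1 1370750_a_at -0.81 to 0.50. They were, for SA minus RA, Il18 1369665_a_at -0.057 to 0.21, Il1r1 1370750_a_at -1.17 to 0.095. They were, for S minus R, Il18 1369665_a_at -0.27 to 0.22, Il1a 1371170_a_at -0.33 to 0.14, Il1b 1398256_at -0.34 to 0.0098, Il1r1 1369255_at -0.16 to 0.82, Il1r1 1370750_a_at -0.80 to 0.072, Il1r1 1392946_at -0.21 to 0.044, Il1rap 1387507_at -0.32 to 0.13, Il1rap 1393563_at -0.045 to 0.19, Il1rn 1387835_at -0.24 to 0.20. The causes were not tested. Over all probe sets, calls in SA minus S were 2048, against 1290 with the replicate block, 869 with only the arrays compared, 1012 with the methods' t-test and fold change, 578 with that test adjusted, 730 without SA replicates 1 and 3, and 1332 to 2270 when 1 array was left out. In RA minus R they were 1570, against 970, 955, 954 and 729 in the first 4 of these settings, 958 with 1 probe set per gene and 967 to 1660 without 1 array. In SA minus RA they were 44, against 8, 33, 559 and 0, with 73 after quantile normalization, 250 with the filter at the array median, 5 without SA replicates 1 and 3, and 7 to 89 without 1 array. The difference of changes gave 0, against 26 with the filter at the array median, 1 with low values set to 100 and 0 to 2 without 1 array. S minus R gave 1, against 370 with the methods' t-test and fold change, 0 or 1 in the other settings and 0 to 2 without 1 array.

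Replicate numbers were not taken as pairs. Same-numbered arrays correlated in their deviations at -0.16 to 0.20 in susceptible rats (2 of 5 best with their own number) and 0.090 to 0.158 in resistant rats (4 of 5), a hint from the data and not from the design. With the replicate block, Il1b in RA minus R (adjusted p = 0.0617) and Il1r2 in SA minus RA (0.109) lost their calls and the other members called kept theirs. In SA minus RA the block joins different rats that share a number, so it cannot test that call. Within a sub-group it takes equal numbers as 1 rat. Among the pathway lists the block ended calls of Map3k8 and Cxcl2 in susceptible rats and of Myd88, Ccl2, Nfkbiz and Zc3h12a in resistant rats (adjusted p 0.0646 to 0.103), and among the markers of Padi4 in both (0.0978 and 0.0672) and of Ahsg (0.0840) and Cd4 (0.101) in susceptible rats. With only the arrays compared, calls of Map3k8 in susceptible rats and of Traf6, Ccl2, Nfkbiz and Tnfaip3 in resistant rats were also lost (0.0585 to 0.0789), and the methods' t-test after adjustment ended these and Myd88 in resistant rats (0.0543 to 0.183). Among the markers, fitting only the arrays compared ended calls of Padi4, Csf1r, Cx3cr1, Cd4, Cd22, Blnk and Alb in susceptible rats (adjusted p 0.0558 to 0.104). In resistant rats it ended Klrg1, Gzmb and Cd28 (0.0577 to 0.0698). The adjusted t-test ended Padi4, Csf1r, Cx3cr1, Adgre1, Ncr1, Klrd1, Cd4, Blnk, Alb and Ahsg in susceptible rats (0.0556 to 0.204). It also ended Padi4, Klrg1, Gzma, Gzmb and Cd28 in resistant rats (0.0503 to 0.0922). The signal of 2 Il1r1 probe sets and 1 of Il1a near the trp controls limits what they can show.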
